A study of Mus musculus with 18 samples.

Results

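The plasminogen activators, their receptor and 4 serpins were followed in RNA-seq of mouse mammary tumour cells targeted for loss of *Kmt2c* or *Kmt2d*. The genes were the activators *Plau* and *Plat*, the receptor *Plaur*, and the serpins *Serpine2*, *Serpinb2*, *Serpinf1* and *Serpinh1*, listed in the count tables as PLAU, PLAT, PLAUR, SERPINE2, SERPINB2, SERPINF1 and SERPINH1. The 7 genes were taken by symbol from the 24385 symbols of the count tables, with no measured value in the rule, though the set itself was proposed with earlier results of these data known. The set is named for plasminogen activators and serpin inhibitors, but only *Serpine2* and *Serpinb2* encode inhibitors of proteases, since the products of *Serpinf1* and *Serpinh1* carry the serpin fold without that activity.

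The study asked what loss of either histone H3 lysine 4 methyltransferase does to the transcriptome of non-metastatic mammary tumour cells. The 18 libraries came from cultures of the mouse lines 168FARN and 67NR, each as WT, *Kmt2c* KO and *Kmt2d* KO, with 3 replicates in each of the 6 groups. The KO cells were sorted pools transfected with Cas9 and 3 guides against exon 1 of one gene. They are therefore mixtures of edited alleles and not clones. The study checked the editing by sequencing the targeted regions and by immunoblot, which showed reduced protein. Mutant *Kmt2c* reads made up a smaller share in 67NR than in 168FARN. The WT libraries of 168FARN are headed sgControl in the count table and those of 67NR are headed WT. By the study's own definition, replicates were collections of a cell line 1 passage apart, so p-values measure the spread between collections and not between independently edited pools.

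Urokinase (*Plau*) and tissue plasminogen activator (*Plat*) are secreted serine proteases that cleave plasminogen to plasmin, which degrades fibrin and matrix proteins and activates matrix metalloproteinases. The receptor uPAR (*Plaur*) holds urokinase at the cell surface, and serpins such as protease nexin-1 (*Serpine2*) and PAI-2 (*Serpinb2*) trap the activators in inactive complexes. In mammary tumours the system is known for its part in invasion, and urokinase is measured as a prognostic marker in breast cancer.

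Total counts per library ran from 14359760 to 43427382 in 168FARN and from 40951775 to 79251530 in 67NR. Levels are given as CPM, counts scaled to a common library size with TMM factors over the 18 libraries. The factor of 67NR *Kmt2d* KO replicate 3 was 0.73, against 0.97 to 1.13 in the other 67NR libraries, which raises its CPM values. A gene was called when the Benjamini–Hochberg adjusted p of edgeR's quasi-likelihood test was under 0.1 and the log2 fold change was over 0.6 in size. Replicate 3 stood apart from replicates 1 and 2 in both lines, and a fit with the replicate number as a block is given wherever it changed a call. RNA of the targeted genes was no check of the editing, because small changes in exon 1 need not lower it: *Kmt2c* stood at 82.9 to 92.2 CPM in 67NR *Kmt2c* KO cells and at 55.7 to 64.7 CPM in WT, and *Kmt2d* at 84.7 to 114 CPM in WT and 91.0 to 141 CPM after its own targeting. Of the cell type markers checked against the label of mammary tumour cells, the epithelial ones were present in 67NR, where all 14 epithelial markers averaged over 1 CPM in WT, whereas in each 168FARN group only *Krt8* and *Grhl2* of the 14 did. *Krt8* averaged 217 CPM in WT, 167 CPM after *Kmt2c* loss and 199.8 CPM after *Kmt2d* loss there, and *Grhl2* 1.33, 1.72 and 1.98 CPM in the same order, while *Epcam*, *Cldn3*, *Cldn4*, *Cldn7*, *Esrp2* and *Crb3* were at 0.

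In 67NR, 5 of the 7 genes were called in *Kmt2c* KO cells and 5 of 7 in *Kmt2d* KO cells, where 35.3% and 25.5% of all genes tested were called. *Plaur*, *Plat* and *Serpinb2* rose and *Plau* and *Serpine2* fell in both KOs, where 17.9% and 13.9% of genes were called higher and 17.4% and 11.6% lower. The replicate block called the same 5 in each KO, beside 41.3% and 32.7% of genes. The libraries of those 5 genes did not overlap with WT in either KO, as for 47.6% and 38.9% of all genes. In 168FARN no member was called in either KO, against 0.359% of genes tested for *Kmt2c* and 0.286% for *Kmt2d*. Only 1 of the 5 members tested there, *Plat* in *Kmt2c* KO cells, had an unadjusted p under 0.05 by edgeR, and DESeq2 without a block called none in either KO. With the replicate block, 3 members were called in 168FARN *Kmt2c* KO cells (7.23% of genes) and 1 in *Kmt2d* KO cells (5.90% of genes). Both KOs of a line were compared with the same WT libraries, so their shared calls are not independent.

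**Figure D1:**
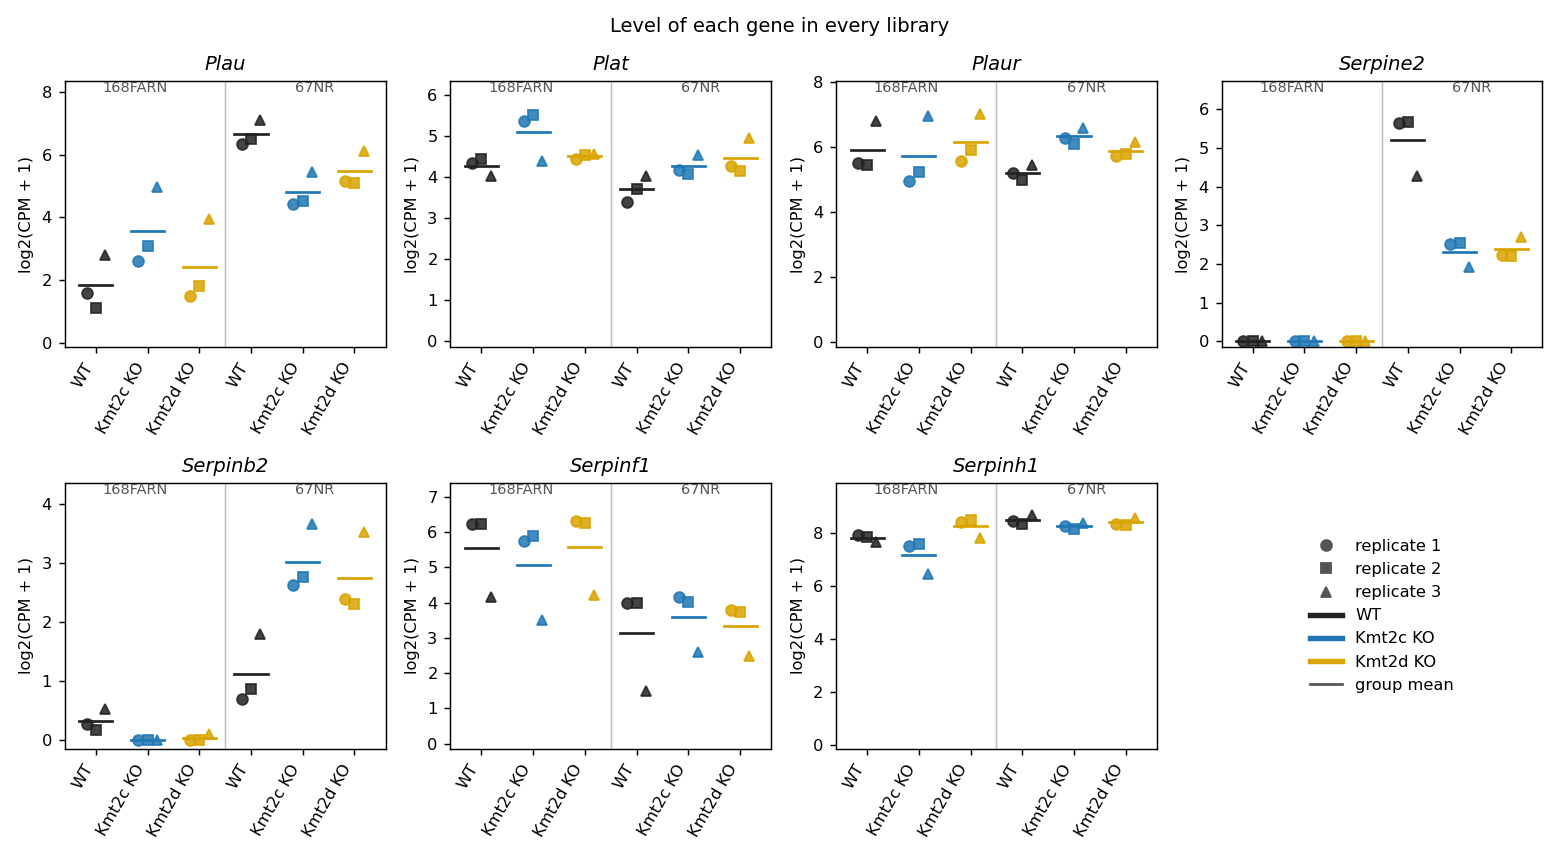
Level of each of the 7 genes in the 18 libraries, as log2(CPM + 1) on the vertical axis, by genotype and line. Markers give the replicate number and bars the mean of 3 libraries. *Serpine2* is at 0 in all 9 libraries of 168FARN. Replicate 3 lies above the others for *Plau* and *Plaur* and below them for *Serpinf1* in every group. Scaled to total counts, *Plaur* in 67NR *Kmt2d* KO replicate 3 (51.2 CPM) was below the others of its group.

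*Plau*, the urokinase gene, lies at chr14:21655884-21662610 on the plus strand of mm9. In 67NR WT its level was 80.5, 89.0 and 137 CPM in replicates 1 to 3. It was 20.4, 21.8 and 42.4 CPM in *Kmt2c* KO cells. It was 34.7, 33.4 and 69.0 CPM in *Kmt2d* KO cells. Each KO library lay below each WT library, and replicate 3 was the highest library of each group. *Plau* fell 3.43-fold in *Kmt2c* KO cells (log2 fold change -1.78, SE 0.386, edgeR adjusted p = 0.0067). It fell 2.13-fold in *Kmt2d* KO cells (log2 fold change -1.09, SE 0.379, edgeR adjusted p = 0.07). As these are bulk libraries of pooled cells, fewer cells that express a gene and less RNA per cell cannot be told apart.

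The *Kmt2d* call of *Plau* was lost without 67NR WT replicate 2 (edgeR adjusted p = 0.11) or 3 (0.15), or without replicate 1 (0.21) or 2 (0.21) of the *Kmt2d* KO cells. The *Kmt2c* call held in all 6 fits that left out a library, with log2 fold changes from -2.19 to -1.51. The KOs differed from each other by -0.69 on the log2 scale (*Kmt2c* minus *Kmt2d*, 95% interval -1.54 to 0.16, edgeR adjusted p = 0.57). That difference was called with the replicate block (log2 -0.69, SE 0.123, edgeR adjusted p = 0.0074).

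Levels of *Plau* in 168FARN were far lower. WT libraries stood at 1.98, 1.16 and 5.99 CPM. *Kmt2c* KO libraries stood at 5.10, 7.42 and 30.3 CPM, and *Kmt2d* KO libraries at 1.80, 2.504 and 14.2 CPM. The groups overlapped, because WT replicate 3 lay above *Kmt2c* KO replicate 1 and above *Kmt2d* KO replicates 1 and 2. Within a replicate number, *Kmt2c* KO cells had 2.57, 6.39 and 5.06 times the WT level, and *Kmt2d* KO cells 0.906, 2.16 and 2.38 times. Neither KO was called from genotype alone (log2 2.22, 95% interval -0.20 to 4.63, edgeR adjusted p = 0.91, and log2 1.03, interval -1.32 to 3.38, adjusted p = 1). Under the block *Plau* rose in *Kmt2c* KO cells (log2 2.14, SE 0.245, edgeR adjusted p = 0.00025) and in *Kmt2d* KO cells (log2 0.83, SE 0.26, adjusted p = 0.08), and it was higher in *Kmt2c* than in *Kmt2d* KO cells (log2 1.31, SE 0.239, adjusted p = 0.0075). Single libraries moved these values: without a block, the *Kmt2c* value ran from 1.03 without *Kmt2c* KO replicate 3 to 3.21 without WT replicate 3, and the *Kmt2d* value from -0.50 without *Kmt2d* KO replicate 3 to 2.001 without WT replicate 3, none called. The difference between the KOs ran from 0.0046 without *Kmt2c* KO replicate 3 to 2.73 without *Kmt2d* KO replicate 3. In replicates 1 and 2 alone the *Kmt2d* call was lost (log2 0.46, edgeR adjusted p = 0.37), and the *Kmt2c* value was 2.02 (adjusted p = 3e-04).

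The estimated *Kmt2c* effect on *Plau* had opposite signs in the lines, and the difference between the effects passed the test. Line, the share of mutant *Kmt2c* reads, library making and the sgControl handling of WT cells cannot be told apart in this difference. The 67NR effect minus the 168FARN effect was -4.07 on the log2 scale (SE 1.14, edgeR adjusted p = 0.029), in a test that called 2 of 6 members and 16.0% of all genes. The other of these was *Serpinb2*, which entered only through its 67NR libraries, so the count supports nothing about the members. The *Plau* difference was -4.91 without 168FARN WT replicate 3 and -2.82 without 168FARN *Kmt2c* KO replicate 3 (edgeR adjusted p = 0.013 and 0.081). For *Kmt2d* the difference was -2.19 (95% interval -4.56 to 0.19, edgeR adjusted p = 0.32), and it was called with the replicate block (log2 -2.04, SE 0.283, adjusted p = 3.6e-05). Under the block 4 of 6 members (34.6% of genes) and 2 of 6 members (28.4% of genes) had line differences for *Kmt2c* and *Kmt2d*, *Serpinb2* again among them. Between the WT cells of the lines *Plau* was 33.3-fold higher in 67NR (log2 5.06, SE 0.918, edgeR adjusted p = 0.00041), and the log2 difference was 5.96 without 168FARN WT replicate 3. That comparison called 5 of 7 members beside 39.2% of genes, and the libraries of all 7 did not overlap (46.6% of genes). Of those, *Serpine2* and *Serpinb2* passed the filter only through 67NR, where they were higher, so these counts are a description. Line, library making and the sgControl handling cannot be told apart in it.

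*Plat*, the gene of tissue plasminogen activator, lies at chr8:23868216-23893319 on the plus strand. In 67NR WT it was at 9.57, 12.03 and 15.2 CPM. It was at 17.2, 16.0 and 22.3 CPM in *Kmt2c* KO cells and at 18.2, 16.9 and 30.3 CPM after *Kmt2d* loss. The KO and WT libraries did not overlap, though the lowest KO library of either genotype lay close above WT replicate 3. *Plat* rose 1.59-fold with *Kmt2c* loss (log2 0.67, SE 0.271, edgeR adjusted p = 0.085) and 1.87-fold with *Kmt2d* loss (log2 0.90, SE 0.271, adjusted p = 0.041).

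Both calls of *Plat* depended on single libraries. The *Kmt2c* call was lost without WT replicate 1 (edgeR adjusted p = 0.25) or 2 (0.19), or without *Kmt2c* KO replicate 1 (0.14), 2 (0.11) or 3 (0.22). The *Kmt2d* call was lost without WT replicate 1 (0.14) or 2 (0.11) or *Kmt2d* KO replicate 3 (0.11). Under the replicate block the edgeR adjusted p was 0.0032 for *Kmt2c* and 0.00093 for *Kmt2d*. The KOs differed from each other by -0.23 on the log2 scale (95% interval -0.84 to 0.38).

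In 168FARN, *Plat* stood at 19.5, 20.8 and 15.4 CPM in WT. It stood at 40.3, 44.8 and 20.0 CPM in *Kmt2c* KO cells and at 20.7, 22.2 and 22.6 CPM after *Kmt2d* loss. Replicates 1 and 2 of *Kmt2c* KO cells were about level with each other and far above every WT library, whereas replicate 3 lay within the WT range. The *Kmt2c* difference was not called from genotype alone (log2 0.92, 95% interval 0.25 to 1.59, edgeR adjusted p = 0.53). It was called without *Kmt2c* KO replicate 3 (log2 1.20, edgeR adjusted p = 0.062) and with the replicate block (log2 0.88, SE 0.193, adjusted p = 0.016). For *Kmt2d* the log2 fold change was 0.25 (95% interval -0.41 to 0.91). The effects in the lines differed by -0.33 for *Kmt2c* (interval -1.21 to 0.56) and by 0.60 for *Kmt2d* (interval -0.29 to 1.48), and neither was called. WT cells of 67NR were at -0.60 against 168FARN (log2, interval -1.23 to 0.03, edgeR adjusted p = 0.13), a difference called without 168FARN WT replicate 3 (log2 -0.78, adjusted p = 0.085) or 67NR WT replicate 3 (log2 -0.78, adjusted p = 0.077).

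The balance of the activators can be read within each library per kilobase of exon. In 67NR WT *Plau* had 9.08, 7.99 and 9.72 times the level of *Plat* in replicates 1 to 3. The ratio was 1.28, 1.47 and 2.06 in *Kmt2c* KO cells and 2.05, 2.14 and 2.46 in *Kmt2d* KO cells. No KO library reached the WT range of this ratio, as *Plau* fell and *Plat* rose. In 168FARN WT *Plat* was the higher of the activators, with 9.10, 16.6 and 2.38 times the level of *Plau*. It had 7.32, 5.59 and 0.613 times the level in *Kmt2c* KO cells and 10.7, 8.20 and 1.47 times in *Kmt2d* KO cells. Replicate 3 gave the lowest of these ratios in each 168FARN group.

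*Plaur*, the receptor gene, lies at chr7:25247519-25260892 on the plus strand. In 67NR WT it was at 36.1, 31.0 and 43.1 CPM. It was at 77.8, 68.2 and 95.01 CPM in *Kmt2c* KO cells and at 52.5, 54.0 and 70.0 CPM after *Kmt2d* loss. The genotypes of 67NR did not overlap with WT, and only *Kmt2d* KO replicate 3 reached the range of *Kmt2c* KO cells. Scaled to total counts instead, that library stood at 51.2 CPM, below its own replicates 1 and 2 at 54.8 and 59.3 CPM. It was then also below the lowest *Kmt2c* KO library at 74.7 CPM. *Plaur* rose 2.32-fold in *Kmt2c* KO cells (log2 1.21, SE 0.193, edgeR adjusted p = 0.0013) and 1.69-fold in *Kmt2d* KO cells (log2 0.75, SE 0.192, adjusted p = 0.021). Both calls held whichever library was left out, with log2 fold changes of 1.08 to 1.34 and 0.64 to 0.88. The KO over WT ratio within a replicate number was 2.16, 2.20 and 2.21 for *Kmt2c* and 1.45, 1.74 and 1.62 for *Kmt2d*. The KOs differed by 0.46 (95% interval 0.03 to 0.89, edgeR adjusted p = 0.43).

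In 168FARN, *Plaur* was at 44.7, 43.1 and 110.1 CPM in WT. It was at 30.1, 36.9 and 123 CPM in *Kmt2c* KO cells and at 46.5, 59.9 and 129.6 CPM after *Kmt2d* loss. Replicate 3 was 2.51, 3.66 and 2.44 times the mean of the other replicates in these groups, which exceeded the differences between the group means of 66.0, 63.2 and 78.7 CPM. The log2 fold change was -0.06 for *Kmt2c* (95% interval -1.57 to 1.44) and 0.26 for *Kmt2d* (interval -1.24 to 1.77). The intervals narrowed under the replicate block to -0.50 to 0.10 and -0.03 to 0.57, and neither was called. The *Kmt2c* effect differed between the lines by 1.19 (interval -0.31 to 2.69, edgeR adjusted p = 0.35), which was called with the replicate block (log2 1.33, SE 0.187, adjusted p = 2.7e-05) and without 168FARN *Kmt2c* KO replicate 3 (log2 2.18, adjusted p = 0.019). The *Kmt2d* effect differed by 0.43 (interval -1.07 to 1.92). WT cells of 67NR were at -0.85 against 168FARN (log2, interval -1.91 to 0.22), without a call although the libraries did not overlap.

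**Figure D2:**
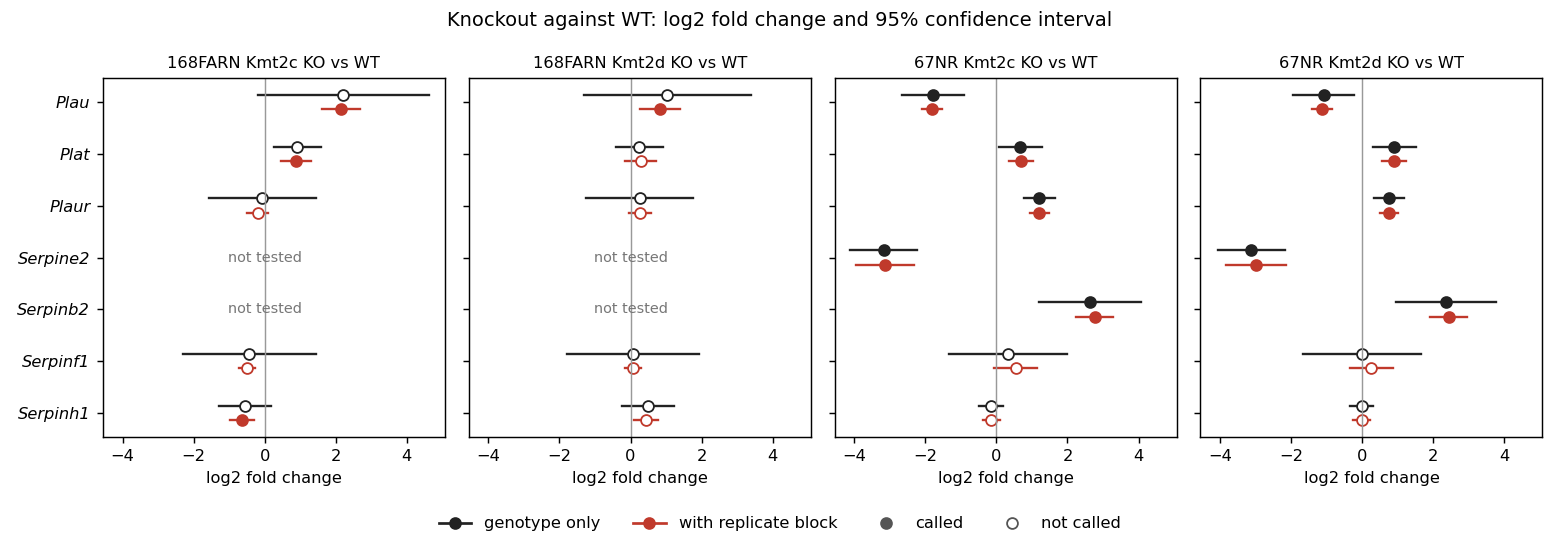
Log2 fold change of each gene in KO against WT cells with its 95% confidence interval, from the genotype-only fit (black) and the fit with the replicate block (red), with filled points for called genes. In 67NR the same 5 genes are filled in both KOs under both fits; in 168FARN only red points are filled, and *Serpine2* and *Serpinb2* were too low to test.

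The sequence before the start site is shown for the receptor and for both inhibitory serpins, all called in both 67NR KOs. RefSeq windows (GRCm38.p6) matched 5 of the 7 genes, and the 250 bases before each start were found once, exactly, in mm9. Capitals mark matches on either strand to TGANTCA (the AP-1 motif), GGGCGG (the GC box) or TATAAA (the TATA box), and 6.75%, 32.7% and 12.4% of 32851 windows of that length held them. Adjoining GC boxes share bases. The windows are *Plaur* at chr7:25247252-25247501 on the plus strand, *Serpine2* at chr1:79855272-79855490 on the minus strand, cut to the 219 bases outside the annotated gene, and *Serpinb2* at chr1:109407750-109407999 on the plus strand.
Plaur: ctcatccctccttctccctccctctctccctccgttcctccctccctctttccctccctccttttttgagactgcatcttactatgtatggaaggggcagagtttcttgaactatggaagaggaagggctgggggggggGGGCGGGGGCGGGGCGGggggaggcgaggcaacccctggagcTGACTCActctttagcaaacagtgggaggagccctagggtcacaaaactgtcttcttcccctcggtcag
Serpine2: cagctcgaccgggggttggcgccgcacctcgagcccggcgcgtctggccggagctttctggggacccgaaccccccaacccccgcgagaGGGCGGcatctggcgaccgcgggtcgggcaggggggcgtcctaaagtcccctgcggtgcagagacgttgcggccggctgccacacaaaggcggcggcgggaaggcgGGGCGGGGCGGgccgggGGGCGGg
Serpinb2: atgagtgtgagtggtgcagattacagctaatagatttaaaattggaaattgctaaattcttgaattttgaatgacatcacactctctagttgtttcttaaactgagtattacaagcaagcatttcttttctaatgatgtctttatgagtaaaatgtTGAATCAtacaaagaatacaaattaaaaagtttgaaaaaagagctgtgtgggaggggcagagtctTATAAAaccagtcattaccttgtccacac
The 250-base *Serpine2* window was 78.8% G or C with 34 CpG pairs, and it held 6 GC boxes, some of them in the part not printed, and no AP-1 or TATA match. The *Serpinb2* window was 32.4% G or C with no CpG pair. It held 1 TATA match and 1 match to TGANTCA, which read TGAATCA and so rests on the open base of that motif. The *Plaur* window, at 59.6% G or C with 6 CpG pairs, held 1 AP-1 match, which read TGACTCA, and 3 GC boxes. The median window had 52.4% G or C and 6 CpG pairs, so the serpins lay on either side of it. A match of letters is no evidence of a bound factor.

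*Serpine2*, the gene of protease nexin-1, which inhibits thrombin, urokinase and tissue plasminogen activator, lies at chr1:79790772-79855271 on the minus strand behind the CpG-rich window above. In 67NR WT it was at 49.1, 50.3 and 18.2 CPM. It was at 4.72, 4.81 and 2.77 CPM in *Kmt2c* KO cells and at 3.71, 3.63 and 5.52 CPM after *Kmt2d* loss. Each KO library was below each WT library, and WT replicate 3 was the lowest of its group. *Serpine2* fell 8.99-fold in *Kmt2c* KO cells (log2 -3.17, SE 0.42, edgeR adjusted p = 0.00045) and 8.70-fold in *Kmt2d* KO cells (log2 -3.12, SE 0.42, adjusted p = 0.00084). Within replicates 1, 2 and 3 the KO over WT ratio was 0.0961, 0.0956 and 0.152 for *Kmt2c* and 0.0755, 0.0720 and 0.303 for *Kmt2d*.

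Both calls of *Serpine2* held whichever library was left out, with log2 fold changes of -3.51 to -2.95 and -3.46 to -2.91. The KOs differed from each other by -0.05 (95% interval -0.93 to 0.84). In 168FARN *Serpine2* had 0 counts in all 9 libraries. Against a floor of 3 counts over the group, the 8378 counts of 67NR WT put it 1483-fold above 168FARN WT (lower counting limit 1206). The same ratio was 149.6-fold between *Kmt2c* KO cells (lower limit 121.4) and 87.9-fold between *Kmt2d* KO cells (lower limit 71.3). The neighbour *Mrpl44*, 12751 bases away, was read in both lines, at 33.8 to 37.6 CPM in 168FARN WT and 39.2 to 44.9 CPM in 67NR WT.

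*Serpinb2*, the gene of PAI-2, an inhibitor of urokinase that is largely kept inside the cell, lies at chr1:109408000-109432055 on the plus strand behind the AT-rich window above. It overlaps the annotated pseudogene *Serpinb10-ps* on the same strand, and how reads there were assigned is not given in the sources used here. In 67NR WT it was at 0.614, 0.823 and 2.48 CPM. It was at 5.18, 5.76 and 11.7 CPM in *Kmt2c* KO cells and at 4.26, 3.98 and 10.5 CPM after *Kmt2d* loss. Every KO library exceeded every WT library, and replicate 3 was the highest in each genotype. *Serpinb2* rose 6.19-fold in *Kmt2c* KO cells (log2 2.63, SE 0.632, edgeR adjusted p = 0.011) and 5.10-fold in *Kmt2d* KO cells (log2 2.35, SE 0.627, adjusted p = 0.026).

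The size of the *Serpinb2* change depended on replicate 3, while the calls held. Without WT replicate 3 the log2 fold changes were 3.47 and 3.19, and without KO replicate 3 they were 2.18 and 1.79, for *Kmt2c* and *Kmt2d*. The KOs differed by 0.28 (95% interval -1.05 to 1.61). In 168FARN the gene was near its floor, with 6, 4 and 19 counts in WT, none in *Kmt2c* KO cells and 0, 0 and 2 counts in *Kmt2d* KO cells. By the floor of 3 counts over the group, WT was 9.67-fold higher than *Kmt2c* KO cells (lower counting limit 7.37). WT had 8.81 times the level of *Kmt2d* KO cells (counting interval 2.23 to 76.2). The gene did not enter the 168FARN tests. For this reason no test of a difference between the lines is given for *Serpinb2*, although it was the 1 of 6 members that the 18-library fit called for *Kmt2d*, beside 10.6% of genes. WT cells of 67NR had 4.85 times the level of 168FARN, a log2 difference of 2.28. It became 2.91 without 168FARN WT replicate 3. Without 67NR WT replicate 3 it was 1.43. These values are a description, because the gene passed the filter only through 67NR, where it was higher.

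**Figure D3:**
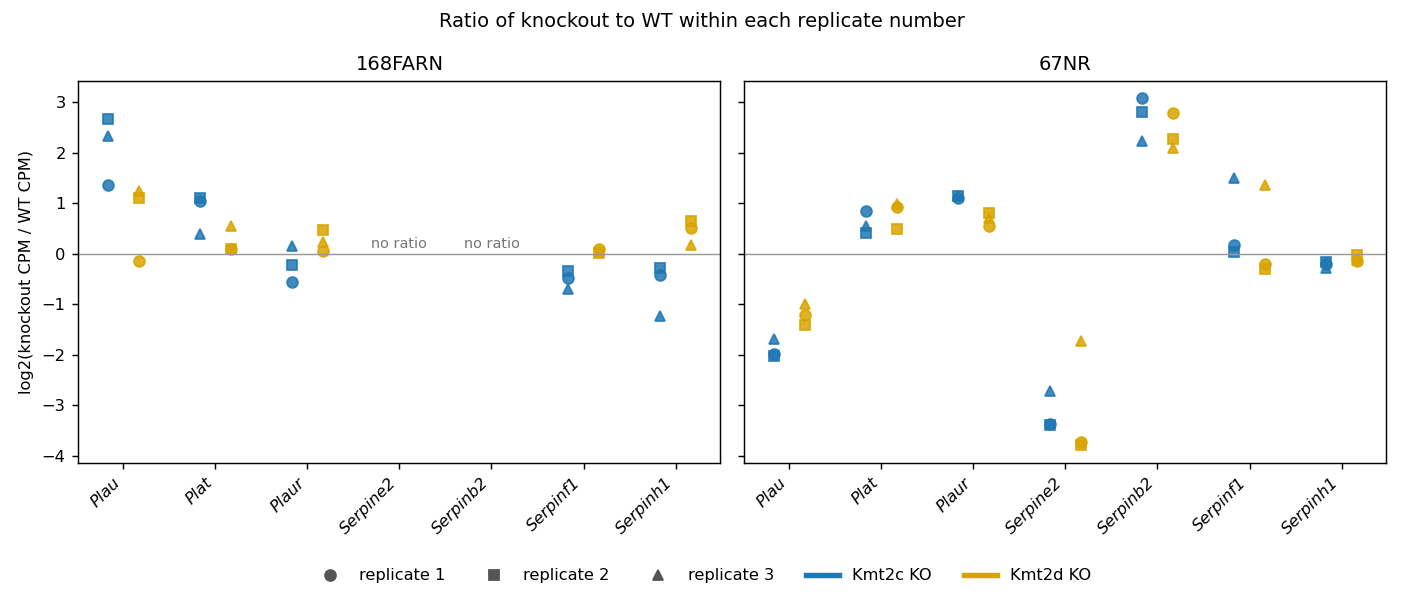
Ratio of KO to WT CPM between libraries of the same replicate number, as log2, for each gene in 168FARN (left) and 67NR (right). *Plau* ratios lie above 0 in 5 of 6 pairs of 168FARN and below 0 in 6 of 6 pairs of 67NR. Both KOs of a line share the WT library of each number, so these pairs are not independent. No ratio is drawn for *Serpine2* and *Serpinb2* in 168FARN, where levels were at or near 0.

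*Serpinf1*, the gene of PEDF, a secreted antiangiogenic factor that inhibits no protease, lies at chr11:75223271-75236203 on the minus strand. In 168FARN it was at 74.0, 73.7 and 16.96 CPM in WT. It was at 53.1, 58.2 and 10.4 CPM in *Kmt2c* KO cells and at 78.9, 74.8 and 17.5 CPM after *Kmt2d* loss. Replicate 3 had 0.230, 0.187 and 0.227 times the mean of the other replicates. The log2 fold change was -0.43 for *Kmt2c* (95% interval -2.29 to 1.43) and 0.08 for *Kmt2d* (interval -1.79 to 1.94). Under the block *Kmt2c* KO cells were at -0.50 (interval -0.73 to -0.26, edgeR adjusted p = 0.013), which missed the fold threshold of 0.6, and *Kmt2d* KO cells at 0.07 (interval -0.16 to 0.30).

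In 67NR, *Serpinf1* was at 14.7, 14.98 and 1.79 CPM in WT. It was at 16.7, 15.3 and 5.07 CPM in *Kmt2c* KO cells and at 12.8, 12.2 and 4.59 CPM after *Kmt2d* loss. The groups overlapped, with replicate 3 lowest in each. The log2 fold changes were 0.32 (95% interval -1.33 to 1.98) and -0.01 (interval -1.67 to 1.64), and neither was called. The *Kmt2c* effect differed between the lines by 0.67 (interval -1.79 to 3.13), which was called with the replicate block (log2 0.93, SE 0.302, edgeR adjusted p = 0.024). WT cells of 67NR had 5.21-fold less *Serpinf1* than those of 168FARN (log2 -2.38, SE 0.857, edgeR adjusted p = 0.04), a call lost without 168FARN WT replicate 2 (log2 -2.16, adjusted p = 0.1).

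*Serpinh1*, the gene of HSP47, a collagen chaperone of the endoplasmic reticulum that inhibits no protease, lies at chr7:106493885-106501740 on the minus strand. It had the highest level per kilobase of the 7 genes by group mean in all 6 groups. In 67NR it was at 355, 323 and 411 CPM in WT. It was at 306, 287 and 336 CPM in *Kmt2c* KO cells and at 321.5, 319 and 378 CPM after *Kmt2d* loss. The groups overlapped, and the log2 fold changes were -0.15 (95% interval -0.48 to 0.19) and -0.02 (interval -0.36 to 0.31). Both intervals lay within 0.6 of 0 on the log2 scale.

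In 168FARN, *Serpinh1* was at 243, 229.6 and 201 CPM in WT. It was at 182, 189.6 and 86.0 CPM in *Kmt2c* KO cells and at 345, 361 and 226 CPM after *Kmt2d* loss. *Kmt2c* KO libraries lay below all WT and all *Kmt2d* KO libraries, while 2 of 3 *Kmt2d* KO libraries lay above WT. *Serpinh1* in *Kmt2c* KO cells was the 1 of 5 tested members without overlap with WT, beside 11.0% of genes tested, and all 5 overlapped with WT in *Kmt2d* KO cells, where 10.6% of genes did not. *Serpinb2*, too low to be tested, also did not overlap with WT in either KO. From genotype alone neither KO was called (log2 -0.56, interval -1.29 to 0.18, and log2 0.48, interval -0.25 to 1.21), nor was the difference between the KOs (log2 -1.04, interval -1.78 to -0.30, edgeR adjusted p = 0.58). With the replicate block *Serpinh1* fell in *Kmt2c* KO cells (log2 -0.64, SE 0.157, edgeR adjusted p = 0.025) and was 2.11-fold lower than in *Kmt2d* KO cells (log2 -1.08, SE 0.158, adjusted p = 0.002). The KO comparison called 0 of 5 members and 0.253% of genes from genotype alone and 2 of 5 members and 5.33% of genes with the block. In 67NR the same comparison called 0 of 7 members (1.41% of genes), with *Plaur* alone at an unadjusted p under 0.05 and none called by DESeq2, and 1 of 7 with the block (7.29% of genes).

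Between WT cells *Serpinh1* was 1.62-fold higher in 67NR (log2 0.69, SE 0.256, edgeR adjusted p = 0.045). That call was lost without 168FARN WT replicate 1 (adjusted p = 0.1), 2 (0.13) or 3 (0.17), or without 67NR WT replicate 3 (0.11). The KO effects on *Serpinh1* differed between the lines by 0.33 for *Kmt2c* (95% interval -0.44 to 1.10) and by -0.56 for *Kmt2d* (interval -1.33 to 0.20), without a call.

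Per kilobase of exon, the order of the members changed with line and genotype. In 67NR WT the order was *Serpinh1* at 149 CPM per kilobase, *Plau* at 43.6, *Plaur* at 26.3, *Serpine2* at 10.2, *Plat* at 4.85, *Serpinf1* at 4.45 and *Serpinb2* at 0.556. Neighbours from *Serpine2* down overlapped in their libraries, and the others did not. In both 67NR KOs *Plaur* stood above *Plau*, behind only *Serpinh1*, and *Serpine2* was last with 1.07 and 1.119 CPM per kilobase, below *Serpinb2* with 3.21 and 2.66. The libraries of those 2 inhibitors did not overlap in either KO. In 168FARN the order in WT was *Serpinh1* at 92.2, *Plaur* at 47.3, *Serpinf1* at 23.3, *Plat* at 7.34 and *Plau* at 1.299, followed by *Serpinb2* at 0.110 and *Serpine2* at 0. This order of the first 5 was the same in both KOs of 168FARN by group means, though most neighbours there overlapped.

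**Figure D4:**
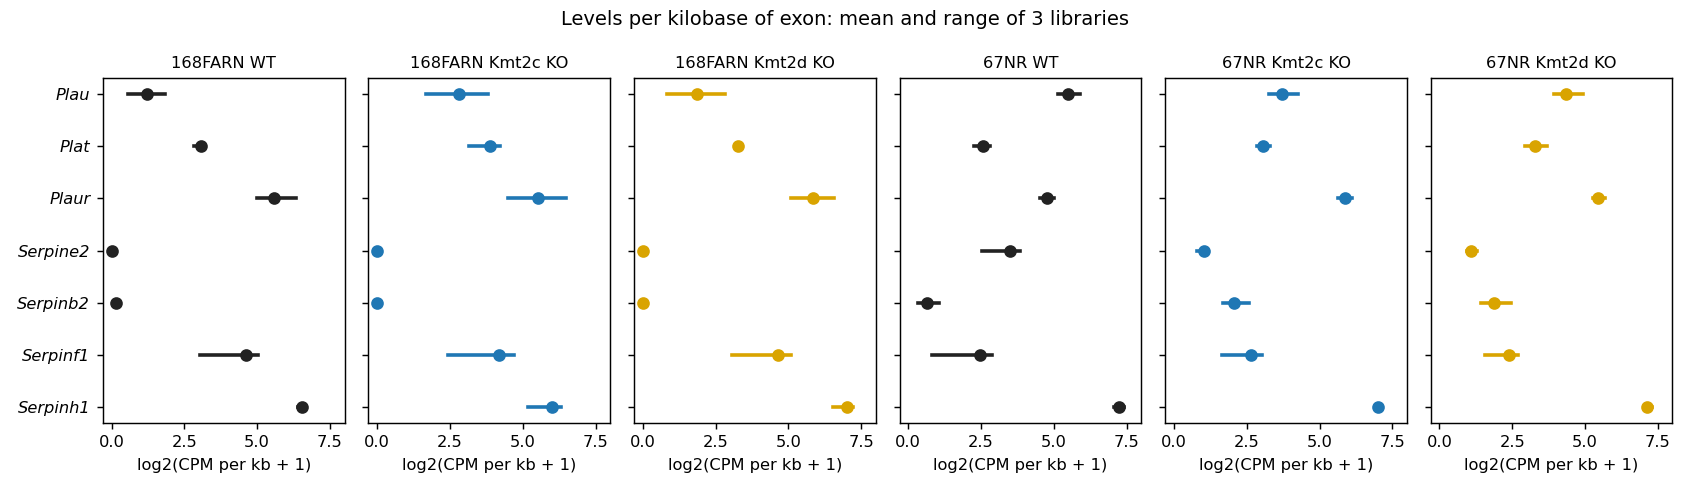
Level per kilobase of exon, as log2(CPM per kb + 1), for the 7 genes in each group, with the mean as a point and the range of 3 libraries as a line. *Plau* lies above *Plaur* in 67NR WT and below it in both 67NR KOs, where *Serpine2* is last, and *Serpinh1* has the highest mean in all groups.

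Other genes of the plasminogen system were read from a list of 22. Plasminogen itself was at most 0.118 CPM in any library, so its RNA was near the floor in these cells. In 67NR 12 of the 22 were tested, and 4 rose and 3 fell in *Kmt2c* KO cells, while 4 rose and 2 fell in *Kmt2d* KO cells, beside 35.3% and 25.5% of all genes called in either direction. Their median log2 fold change was 0.64 and 0.66, against -0.02 and -0.02 for all genes tested. The list was chosen with earlier results of these data known, so these values are a description. The genes that rose were *Mrc2* (log2 3.78 and 3.23), whose product uPARAP internalises collagen beside uPAR, the neuroserpin gene *Serpini1* (2.94 and 2.64), the scavenger receptor gene *Lrp1* (2.14 and 1.68), whose product clears protease–serpin complexes, and *Itgav* (0.90 and 0.97). Those that fell in both KOs were *St14* (-2.25 and -1.24), which encodes the epithelial protease matriptase, and the integrin gene *Itgb3* (-2.28 and -3.73). In *Kmt2c* KO cells the receptor gene *Vldlr* also fell (-2.88). *Itgb3* was low even in 67NR WT, where it averaged 1.29 CPM (238 counts over the group). Only 46 counts remained with *Kmt2c* targeted and 14 with *Kmt2d* targeted, the lowest library of the latter reading 0. The sizes of its changes therefore rest on few counts. *Serpini1* rose from a low WT level of 0.529 to 0.804 CPM (130 counts over the group).

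*Mrc2* was at 11.3, 9.52 and 3.996 CPM in 67NR WT. It was at 131, 104 and 87.5 CPM in *Kmt2c* KO cells and at 66.5, 79.9 and 74.2 CPM after *Kmt2d* loss. No KO library came near the WT range, and in 168FARN WT the gene was already at 40.1 to 89.5 CPM. The replicate block also called *S100a10*, whose product is a plasminogen receptor, in both KOs (log2 1.23 and 1.14) and *Vldlr* in *Kmt2d* KO cells (log2 -1.996).

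In 168FARN 10 of the 22 genes were tested and none was called by edgeR in either KO, with 0 and 1 at an unadjusted p under 0.05. With the replicate block *F12*, the gene of coagulation factor XII, rose in *Kmt2c* (log2 1.03) and *Kmt2d* KO cells (log2 1.35), and *Vldlr* rose in *Kmt2d* KO cells (log2 0.62). The block called 7.23% and 5.90% of all genes in these comparisons.

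Of 60 other serpin symbols, 16 were tested in 67NR. In *Kmt2c* KO cells 4 rose and 4 fell, and in *Kmt2d* KO cells 5 rose and 4 fell. Of all genes tested, 17.9% and 13.9% were called higher and 17.4% and 11.6% lower in these comparisons. Besides *Serpini1*, those with the smallest p were *Serpinb6b* (log2 -2.40 and -1.35) and *Serpinb9* (-2.03 and -1.53), which have close paralogs in the mouse genome, so their counts are uncertain. In 168FARN 10 were tested and only *Serpina12*, the vaspin gene, was called, higher in *Kmt2d* KO cells (log2 4.64, SE 0.744, edgeR adjusted p = 0.082), while 2 had an unadjusted p under 0.05 in *Kmt2c* KO cells. The replicate block called 1 higher and 3 lower there and 1 higher and 2 lower in *Kmt2d* KO cells. Collagen chains are the clients of HSP47. In 67NR 13 of 33 tested chains rose and 5 fell in *Kmt2c* KO cells, and 12 rose and 3 fell in *Kmt2d* KO cells, to be read against the same shares of all genes. The chains with the smallest p were *Col6a5* (log2 5.14 and 4.18) and *Col5a3* (3.92 and 3.29). In 168FARN *Kmt2c* KO cells 2 of 27 fell, *Col3a1* (log2 -2.74) and *Col5a2* (-1.42), and edgeR called none in *Kmt2d* KO cells, where 2 had an unadjusted p under 0.05. With the replicate block 6 rose and 3 fell in *Kmt2c* KO cells, and 2 rose and 1 fell in *Kmt2d* KO cells. These counts stand beside the same 7.23% and 5.90% of genes.

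Of the nearest annotated genes on either side, none was called in 168FARN by edgeR. *Cadm4*, 6149 bases from *Plaur*, fell in both 67NR KOs (log2 -2.66 and -2.17) where *Plaur* rose. *Mrpl44* beside *Serpine2* fell by 0.65 in *Kmt2c* KO cells and stood at -0.47 in *Kmt2d* KO cells. Beside *Serpinb2*, *Serpinb8* fell in *Kmt2c* KO cells (log2 -1.39) and *Serpinb7* rose in *Kmt2d* KO cells (log2 2.93). *Mogat2* rose (2.73 and 2.98) and *Gdpd5* fell (-0.95 and -1.12) on either side of *Serpinh1*. No tested neighbour of *Plau*, *Plat* or *Serpinf1* was called in 67NR.

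The genes nearest in pattern to a member were found as the smallest root mean square difference of centred log2(CPM + 1) values over the 18 libraries, as a description with no test. For *Serpine2* they were *Enpp1* (0.296), *Tnfrsf19* (0.329) and *Tjp3* (0.381). *Enpp1* was at 40.6 ± 16.8 CPM in 67NR WT, 3.09 ± 0.558 CPM after *Kmt2c* loss and 7.06 ± 1.75 CPM after *Kmt2d* loss (SD, n = 3), and at 0 in all 168FARN groups. For *Serpinb2* the nearest was *Fat2* (0.424), which went from 0.402 ± 0.294 CPM in 67NR WT to 8.81 ± 2.67 and 5.70 ± 2.42 CPM in the KOs (SD, n = 3). For *Plau* it was *Celf2* (0.715), at 238 ± 75.0 CPM in 67NR WT and 90.8 ± 24.3 and 147 ± 31.5 CPM in the KOs (SD, n = 3). In 168FARN *Celf2* averaged 26.0 CPM in WT, 28.2 CPM after *Kmt2c* loss and 19.4 CPM after *Kmt2d* loss. *Plau* averaged 3.04, 14.3 and 6.18 CPM there in the same order, so the likeness lay mainly in 67NR and between the lines. The nearest to the other members were *Cep128* for *Plaur* (0.245), *Fundc2* for *Plat* (0.235), *Cdsn* for *Serpinf1* (0.424) and *Fbxw7* for *Serpinh1* (0.286).

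Markers of cell type moved with the 67NR results. The summed level of 14 epithelial markers was 3807 to 5766 CPM in 67NR WT, 742 to 1129.7 CPM in *Kmt2c* KO cells and 1259 to 2269.5 CPM in *Kmt2d* KO cells. In these KOs 14 and 11 of the 14 were called lower, beside 17.4% and 11.6% of all genes tested. Of 13 mesenchymal markers tested, 9 rose and 1 fell in each KO, where 17.9% and 13.9% of genes were called higher. In 168FARN the epithelial sum was 102 to 400 CPM over all groups, nearly all of it *Krt8* at 98.7 to 397 CPM. Leukocyte markers summed to 2.87 to 93.2 CPM and endothelial markers to 0.459 to 5.42 CPM over the 18 libraries. The part of these markers in the member results was not tested.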

How the data were processed

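Poly(A) RNA of 18 libraries was sequenced, 3 for each of 3 genotypes in 2 lines. Alignment by the authors used STAR against mm9, run within the VIPER pipeline, and they deposited raw counts per gene symbol, 1 table a line. Versions, annotation and the strand setting are not given in the sources used here, and reads of overlapping genes may be shared. Total counts ran from 14359760 to 79251530, and counting intervals and floors cover counting error only. The tables share all but 54 symbols.

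Counts were filtered with filterByExpr, TMM-scaled and tested with the quasi-likelihood test of edgeR 4.0.16 (limma 3.58.1, R 4.3.3) on genotype alone, over 9 libraries of a line (12253 and 13665 genes) or all 18 (13882 genes). A call needed a Benjamini–Hochberg adjusted p under 0.1 and a log2 fold change over 0.6 in size. Levels are CPM, divided by merged exon length (GENCODE M1) where genes are compared. Promoter windows came from RefSeq (GRCm38.p6) and were placed in mm9 by exact match. The scripts were tested on simulated data.

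Same-numbered libraries of different genotypes deviated together (r 0.62 to 0.88 in 168FARN and 0.32 to 0.69 in 67NR, 9 pairs a line), so the replicate number was also fitted as a block. The study removed collection time as a batch for its heatmaps but tested on genotype, and whether a number marks 1 collection time is not stated. Alternatives were other size factors, DESeq2 1.42.0, no filter, total-count scaling, an adjusted p under 0.05 with a log2 fold change over 0.5, only the groups compared, and each library left out. DESeq2 with the block and replicates 1 and 2 only were added after seeing the data.

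Genes named are the members, called genes of a plasminogen list, the 3 other serpins of smallest p, 2 collagen chains a line, nearest neighbours and genes nearest in pattern. The values of 1 gene of the plasminogen list are not reported here. Members and lists were chosen with earlier results of these data known. Figures used matplotlib 3.10.9 in Python 3.11.15.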

Additional observations from a re-analysis of the deposited data

Results flagged for a closer look

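The effect of *Kmt2c* loss on *Plau* differed between the lines by -4.07 on the log2 scale (67NR minus 168FARN, edgeR adjusted p = 0.029), which marks it for a second look. The difference was called in each fit that left out 1 library, at -4.91 (without 168FARN WT replicate 3) to -2.82 (without 168FARN *Kmt2c* KO replicate 3). For *Serpinb2* each 67NR KO library lay above each WT library (log2 2.63 for *Kmt2c* and 2.35 for *Kmt2d*), where 47.6% and 38.9% of genes did not overlap. Each 168FARN KO library read below each WT library, where 11.0% and 10.6% of genes did not overlap. That reading was near the floor, with 6, 4 and 19 counts in WT. In *Kmt2d* KO replicate 2 the floor of 3 counts was 0.215 CPM, above WT replicates 1 and 2 at 0.205 and 0.122 CPM. The difference between the lines was not tested for *Serpinb2*, because the 168FARN KO groups held 0 and 2 counts.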

How the results depend on the processing

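Over 55 pairs of a member and a comparison, 802 values were recomputed under alternatives, and 709 kept their direction and their side of the threshold, 20 lost a call, 36 gained one and 37 changed sign. The replicate block called more genes in each genotype comparison of 168FARN. In *Kmt2c* KO against WT the 44 genes and 0 members called became 886 and 3 with the block, 917 and 3 with DESeq2 and the block, and 1780 and 2 in replicates 1 and 2 only. In *Kmt2d* KO against WT the 35 genes and 0 members became 723 and 1, 797 and 1, and 1346 and 1. Between the 168FARN KOs the 31 genes and 0 members became 653 and 2, 707 and 2, and 1141 and 4. Between the 67NR KOs the 193 genes and 0 members became 996 and 1, 1211 and 1, and 1743 and 1. The line difference of the *Kmt2c* effect went from 2226 genes and 2 members to 4805 and 4 with the block, 4946 and 4 with DESeq2 and the block, and 5303 genes in replicates 1 and 2 only. That of the *Kmt2d* effect went from 1471 genes and 1 member to 3939 and 2, 4071 and 2, and 4539 and 4, *Serpinb2* being counted in both without a test in 168FARN. The block changed no other call of a member than those given beside the results, and it could not be used between WT lines, where each number lies in 1 line.

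DESeq2 without the block called 288, 248, 235 and 597 genes in the first 4 of these comparisons. With only the 6 libraries compared the counts were 4, 0, 2 and 104, where fewer samples estimate the spread. An adjusted p under 0.05 with a log2 fold change over 0.5 left 23, 19 and, between the 67NR KOs, 90 genes, and it ended the calls of *Plat* (*Kmt2c*) and *Plau* (*Kmt2d*) in 67NR. Small differences changed sign. *Serpinf1* in 67NR *Kmt2d* KO cells went to 0.25 with the block, 0.27 with DESeq2 and the block and 0.0040 with 6 libraries, and *Serpinh1* to 0.0016 with 6 libraries. *Serpine2* between the 67NR KOs went to 0.38 in replicates 1 and 2 only, and the line difference of the *Kmt2d* effect on *Serpinf1* to 0.0887 with the block and 0.14 with DESeq2 and the block. The cause was not tested.

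Leaving out 1 library gave 2 to 57 genes in 168FARN *Kmt2c* KO, 0 to 18 in *Kmt2d* KO, 2 to 35 between the 168FARN KOs and 42 to 210 between the 67NR KOs. Members called ranged from 0 to 1 in 168FARN *Kmt2c* KO, 3 to 4 in 67NR *Kmt2d* KO and 3 to 5 between WT lines. Log2 differences whose sign depended on 1 library ran, in 168FARN *Kmt2c* KO, from -0.98 to 0.55 for *Plaur* and -0.85 to 0.0341 for *Serpinf1*. In 168FARN *Kmt2d* KO they ran from -0.50 to 2.001 for *Plau*, -0.29 to 0.86 for *Plaur* and -0.34 to 0.52 for *Serpinf1*. *Plaur* between the 168FARN KOs ran from -1.24 to 0.24. In 67NR they ran from -0.18 to 0.69 for *Serpinf1* in *Kmt2c* KO, and in *Kmt2d* KO from -0.51 to 0.34 for *Serpinf1* and -0.10 to 0.0776 for *Serpinh1*. Between the 67NR KOs they ran from -0.40 to 0.0701 for *Plat*, -0.17 to 0.87 for *Serpinb2*, -0.18 to 0.17 for *Serpine2* and -0.0125 to 0.71 for *Serpinf1*. For the line difference of the *Kmt2d* effect they ran from -0.0453 to 1.05 for *Plaur* and -0.65 to 0.37 for *Serpinf1*. *Serpinb2* and *Serpine2* held at most 19 and 0 counts a library in 168FARN and were not tested there.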
